A study of Beta vulgaris with 6 samples.

Results

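A set of 190 transcripts of the sugar beet shoot apical meristem was read clearly in some genotypes and not above background in the others, in patterns that did not follow the bolting class. The set was taken from 29094 probes whose names begin with P, which equal in number the probes designed on public sugar beet sequences, out of 53752 probes on the array. A transcript was included when its signal was well above background, by the scanner software's flag, on all arrays of 2, 3 or 4 of the 6 genotypes and on no array of the others, and when the lowest expressing genotype lay at least 3 log2 units above the highest of the others. The division of the 3 bolting-resistant from the 3 bolting-sensitive genotypes was left out. The 190 transcripts were 0.653% of the P probes. Because detection and level in all genotypes chose them, their divisions and gaps are described here without a test.

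The 6 biennial genotypes of Beta vulgaris altissima, numbered 1, 2, 3, 4, 5 and 7, spent their first 8 weeks at 22 °C with 16 h of light a day and were then kept for 9 weeks at 4 °C, the cold treatment that all of them received. Genotypes 1, 4 and 7 are labelled bolting-resistant, with a low capacity to bolt, and genotypes 2, 3 and 5 bolting-sensitive. Only 1 shoot apical meristem was sampled per genotype directly after the cold, freed of differentiated tissue. Its total RNA was copied into Cy3-labelled complementary RNA (cRNA), which was hybridized to 60-base probes. Genotypes 3 and 7 were hybridized to 2 arrays each and the other genotypes to 1, which gave 8 arrays, so a genotype is represented by 1 plant and differences between genotypes and between plants cannot be told apart.

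Sugar beet is a biennial that makes a storage root in its first year and flowers after a winter. Vernalization is the long cold that gives the shoot apical meristem, the stem cell tissue at the tip of the shoot, the competence to bolt, that is, to elongate the flowering stem. Transcripts that are present in one line and missing in another are well known in plants. A probe reports the labelled RNA that binds to it, so less RNA and a difference in sequence under the probe cannot be told apart here. In a bulk sample, fewer cells of a type and less RNA per cell cannot be told apart either.

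All arrays lay on 1 slide read in 1 scan. The share of spots well above background was 42.6% to 45.0% on the 8 arrays, no spot was saturated (0), and the 75th percentile of the intensity ranged from 288.4 to 422.6. Values are log2 intensities from which the 75th percentile of the same array was subtracted, so that 0 marks this percentile. "Silent" is used below only where no array of a genotype read the probe well above background, and "gap" for the log2 distance from the lowest expressing genotype to the highest silent one. The labelled tissue was not checked against marker genes, as no probe could be paired with a meristem, leaf or vascular marker.

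The gaps ranged from 3.01 to 12.47, with a median of 4.72. Of the 190 transcripts, 122 had a gap of at least 4, 65 of at least 6, 28 of at least 8 and 7 of at least 10. The transcripts just inside the limit were P5252, with a gap of 3.007, and P2151, with 3.02, while P24780, with 2.996, and P19785, with 2.98, lay just outside it. Without the requirement on the gap, the flags alone divided 1174 P probes (4.04%) in this way.

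**Figure D1:**
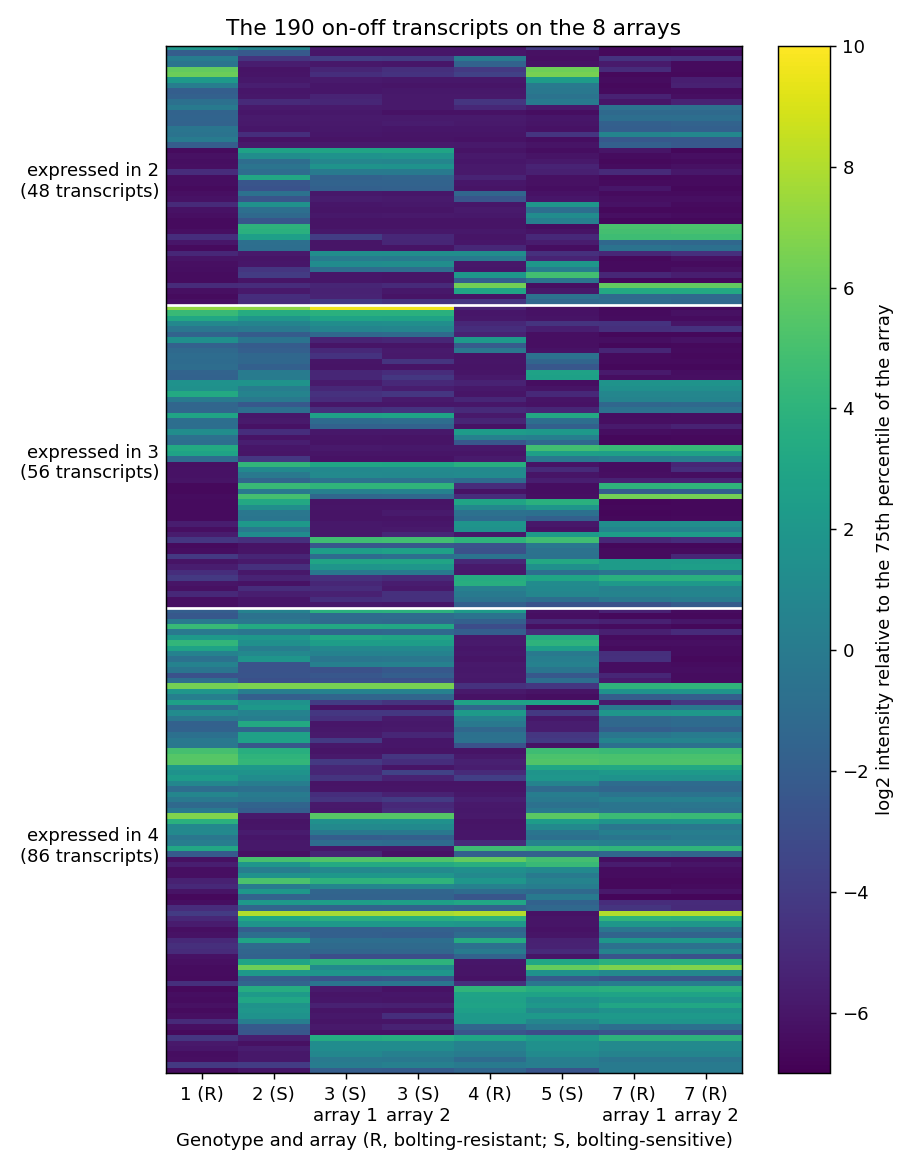
Log2 intensity, set against the array's 75th percentile, for the 190 on-off transcripts (rows) on the 8 arrays (columns), with R for bolting-resistant and S for bolting-sensitive genotypes. Rows are grouped by expression in 2 (48 transcripts), 3 (56) or 4 (86) genotypes and then by division, and the pairs of arrays of genotypes 3 and 7 carry the same pattern in each row.

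The patterns were spread over most of the possible divisions. Counting which genotypes expressed a transcript, 48 divisions were possible, and 41 held at least 1 of the 190 transcripts, with a median of 3 per division. The 7 divisions without a transcript all had genotype 3 among the expressing genotypes and genotype 2 among the silent ones. Expression in 4 genotypes was the most common form (86 transcripts, 45.3%), followed by expression in 3 (56, 29.5%) and in 2 (48, 25.3%), and the median gap was 4.90, 5.04 and 4.32, respectively.

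Expression in genotypes 1, 2, 5 and 7 with silence in 3 and 4 was the most frequent division, with 12 transcripts. Genotypes 2, 3, 4 and 5 shared 10 transcripts that were silent in 1 and 7. The divisions with expression in 2, 4, 5 and 7, in 1, 2, 3 and 5, and in 2, 3, 4 and 7 held 9 transcripts each. A further 3 divisions held 8 each, with expression in 1 and 7, in 2 and 3, and in 1, 2, 4 and 7. The 6 divisions with most transcripts together held 57 of the 190 (30.0%).

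**Figure D2:**
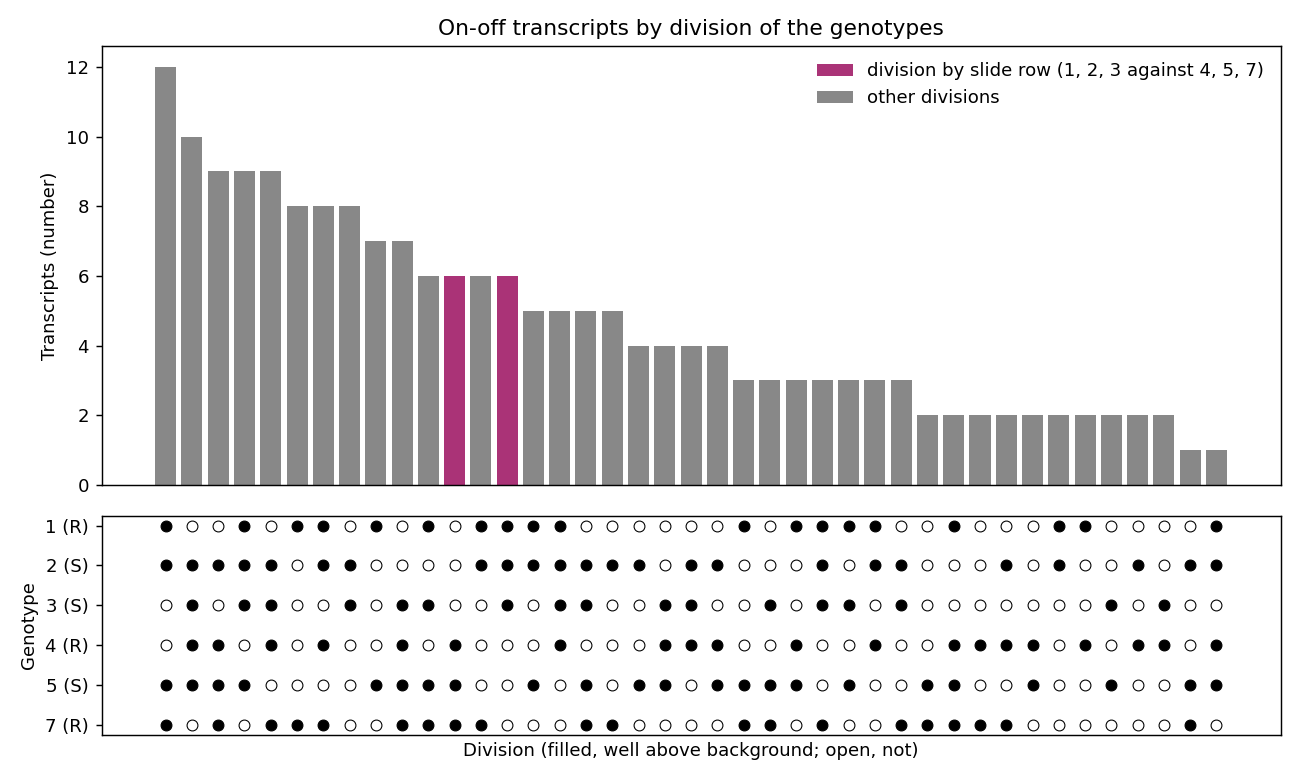
Number of on-off transcripts (upper panel) in each of the 41 divisions that held any, ordered by number, with filled circles for expressing and open circles for silent genotypes (lower panel; R, bolting-resistant; S, bolting-sensitive). The counts fall from 12 to 1, and the coloured bars, with 6 transcripts each, are the divisions by row of the slide.

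When both directions of a division were added, genotypes 1 and 7 were set apart from 2, 3, 4 and 5 by 18 transcripts, 8 expressed in the pair and 10 in the other genotypes. Genotypes 1 and 5 were set apart by 16 transcripts and genotypes 3 and 4 by 14, of which only 2 were expressed in 3 and 4. Over the 15 divisions of 2 genotypes against 4, the count ranged from 1 to 18 with a median of 9. Over the 9 divisions of 3 against 3 it ranged from 1 to 12 with a median of 6. The same criteria gave 7 transcripts for the division by bolting class, 4 of them expressed in the resistant genotypes and 3 in the sensitive ones, with a median gap of 3.47 and a largest gap of 5.79.

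Genotype 2 expressed the most of the 190 transcripts (126, 66.3%) and genotype 4 the fewest (87, 45.8%). Genotype 5 expressed 110, genotype 7 expressed 102, genotype 1 expressed 94 and genotype 3 expressed 89. This order was not that of detection in general, which ranged from 72.2% of the P probes in genotype 3 to 75.7% in genotype 5, with 73.8% in genotype 2. Detection required the flag on both arrays of genotypes 3 and 7 but on only 1 array of the others, so these shares are not on a like base. On single arrays 73.2% of P spots were well above background in genotype 3, and 76.2% and 75.5% in genotype 7. Among the 190 transcripts, 164 were expressed in at least 1 genotype of each class, 14 in sensitive genotypes only and 12 in resistant genotypes only. The most frequent mixture was 2 resistant with 2 sensitive genotypes (52 transcripts, 27.4%). All sensitive genotypes and 1 resistant genotype expressed 24 transcripts, and all resistant genotypes and 1 sensitive genotype expressed 10.

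**Figure D3:**
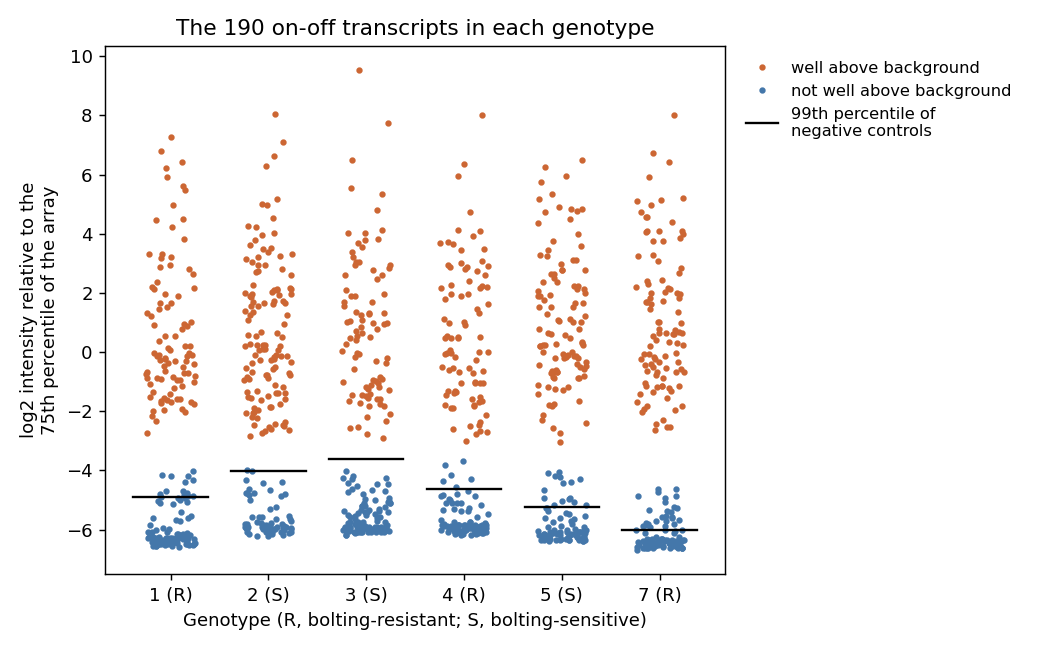
Log2 intensity, set against the array's 75th percentile, of the 190 on-off transcripts in each genotype (R, bolting-resistant; S, bolting-sensitive), with 1 point per transcript, duplicate arrays averaged, and a line at the 99th percentile of the negative control spots. Expressing values reach down to about -3 and silent values lie below them in every genotype, as the criteria largely require. Most silent values lie under the line.

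Taken by pairs, genotypes 2 and 3, both sensitive, were in the same state for 99 of the 190 transcripts (52.1%), the highest of the 15 pairs. Genotypes 1 and 4, both resistant, were in the same state for 57 (30.0%), the lowest. The pair of genotypes 3 and 4, from different classes, came second with 96 (50.5%). Over the 6 pairs of one class the share had a median of 47.1% (range 30.0% to 52.1%), and over the 9 pairs of different classes 46.8% (range 37.4% to 50.5%). The 7 transcripts that followed the class, left out here, would have added 7 to each pair of one class and 0 to the others. Pairs that shared a row of the slide had a median of 47.4% and other pairs 46.3%. The mean share over the 15 pairs is fixed by how many transcripts divide 2 genotypes from 4 and how many 3 from 3. Nothing is therefore read from the contrasts of these medians.

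**Figure D4:**
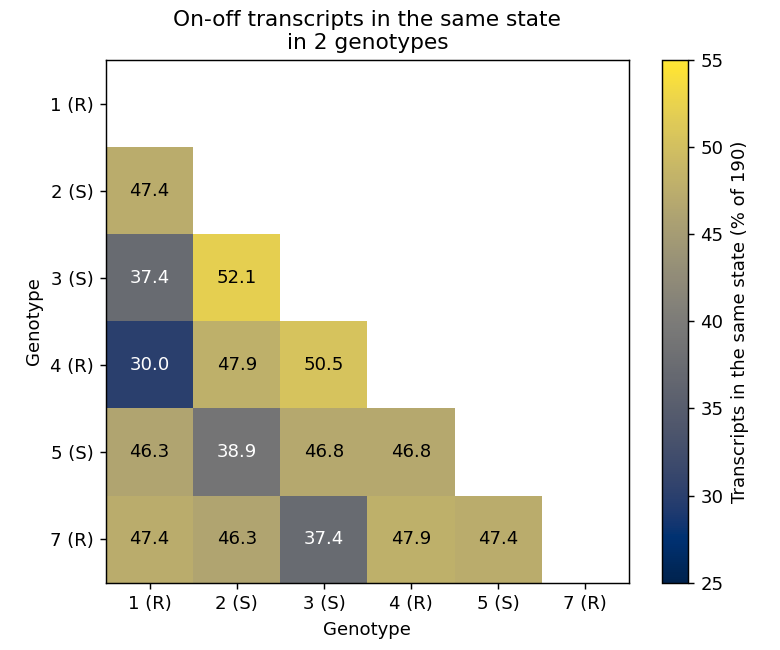
Share of the 190 on-off transcripts that were in the same state, both expressing or both silent, in each pair of the 6 genotypes (R, bolting-resistant; S, bolting-sensitive). The highest share is 52.1% (genotypes 2 and 3) and the lowest 30.0% (genotypes 1 and 4).

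The transcript with the largest gap, P7515, read 7.26 in genotype 1, 7.11 in genotype 2 and 9.54 in genotype 3, against -5.37 in genotype 4, -6.26 in genotype 5 and -6.57 in genotype 7. Genotypes 1, 2 and 3 were thus all far above the others, and genotype 3 was the highest of them, with 9.55 and 9.54 on its 2 arrays. The mean of the expressing genotypes was at least 4290-fold above the silent ones, where a silent array entered with the lowest signal that was well above background on it, or with the probe's own signal if that was higher. This and all folds below are lower limits of that kind and carry no test.

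P28829 read 8.05 in genotype 2, 7.73 in genotype 3, 8.01 in genotype 4 and 8.03 in genotype 7, against -4.03 in genotype 1 and -6.16 in genotype 5. Its 4 expressing genotypes lay within 0.32 of each other (SD 0.15), and the fold was at least 4120. At the 98.1st percentile of detected P probes it was the highest placed of the 190 transcripts. In genotype 1 its signal was above the lowest one called well above background on that array (-4.24) although it did not itself carry the flag.

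P23423 was expressed in genotypes 2 (5.02), 3 (5.36), 4 (5.97) and 5 (4.92) and read -6.24 in genotype 1 and -6.40 in genotype 7, at least 789-fold lower. P8110 was expressed in 2 resistant genotypes only, with 6.35 in genotype 4 and 5.92 in genotype 7, and read -4.88, -4.87, -5.11 and -6.29 in genotypes 1, 2, 3 and 5. The third resistant genotype was therefore with the sensitive ones, and the fold for P8110 was at least 1130. P17551 read 6.81, 5.54, 5.74 and 4.56 in genotypes 1, 3, 5 and 7, against -5.80 in genotype 2 and -5.81 in genotype 4, a fold of at least 739.

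Some of the largest gaps came in pairs of probes with nearly the same profile. P27058 and P26452, both expressed in genotypes 1 and 5, read 5.93 and 6.21 in genotype 1 and 6.26 and 6.49 in genotype 5. In genotypes 2, 3, 4 and 7 P27058 read -6.08, -4.96, -4.17 and -5.71, and P26452 read -6.01, -4.67, -3.68 and -6.55. They differed by at most 0.84 over the 6 genotypes, and their folds were at least 1080 and 1250. In genotype 4 the signal of P26452 was above the lowest one called well above background on that array (-3.85), without carrying the flag.

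P22057 and P22068, with numbers only 11 apart, were expressed in genotypes 2 (3.97 and 3.78) and 7 (5.15 and 4.99). Both lay between -6.49 and -5.90 in the other genotypes and differed by at most 0.22 in any of the 6. P13675 and P621, of the most frequent division, read 4.96 and 5.49 in genotype 1, 3.63 and 4.04 in genotype 2, 4.75 and 5.17 in genotype 5, and 4.58 and 5.11 in genotype 7. In genotypes 3 and 4 P13675 read -6.09 and -6.12, and P621 -5.11 and -5.85. For both probes genotype 2 was the lowest of the expressing genotypes.

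**Figure D5:**
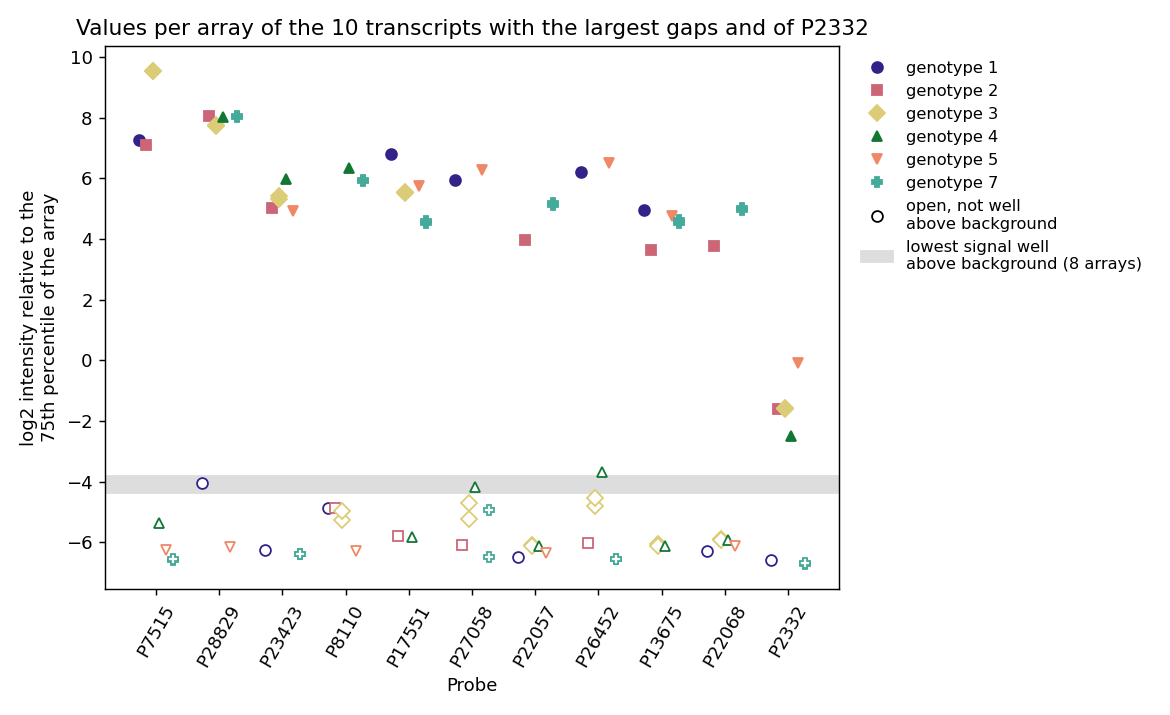
Log2 intensity, set against the array's 75th percentile, on each of the 8 arrays for the 10 transcripts with the largest gaps and for P2332, with 1 symbol per genotype, filled where well above background and open where not. The grey band is the range over the arrays of the lowest signal well above background (-4.39 to -3.81), and expressing values of the 10 transcripts lie between 3.63 and 9.55.

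Further transcripts of the frequent divisions followed. P20404, silent in genotypes 1 (-5.54) and 7 (-5.89), varied from 1.92 in genotype 2 to 3.39 in 3, 3.72 in 4 and 4.51 in 5. P28740, silent in genotypes 1 (-5.14) and 5 (-6.07), read 3.16 in genotype 2, 3.68 in 3, 3.94 in 4 and 4.07 in 7. In both, genotype 2 was the lowest of the expressing genotypes.

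Genotypes 1 and 3 were silent for P22092 (-6.57 and -5.98) and P8593 (-6.40 and -6.01). In genotypes 2, 4, 5 and 7 P22092 read 3.50, 4.13, 3.59 and 3.77, and P8593 read 2.27, 2.89, 2.78 and 2.85. Both probes thus had genotype 2 lowest and genotype 4 highest, at folds of at least 220 and 106.

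Genotypes 4 and 7 were silent for P5081 (-5.85 and -6.42) and P12091 (-5.80 and -6.32). P5081 read 2.18, 2.03, 3.06 and 3.44 in genotypes 1, 2, 3 and 5, and P12091 read 4.22, 1.55, 2.48 and 3.98. Expression in genotypes 2 and 3 alone was led by P11879 (2.82 and 2.95) and P16634 (1.35 and 1.71), with all values of the other genotypes at -5.86 or lower. These folds were at least 111, 144, 130 and 50.8 in the order named.

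Only 1 of the 190 transcripts could be tied to an annotated sequence. P2332 stands in the study's list of accessions for EST FG344072, gene model Bv4_075500_mmrf.t1, matched to Arabidopsis AT3G03420, a Ku70-binding family protein. Ku70 itself is a subunit of the dimer that binds broken DNA ends in the repair of double-strand breaks. P2332 read -1.60 in genotype 2, -1.60 in genotype 3, -2.48 in genotype 4 and -0.09 in genotype 5, against -6.58 in genotype 1 and -6.70 in genotype 7. The resistant genotype 4 was thus with the 3 sensitive ones, and genotype 5 was highest. The mean of the expressing genotypes was at least 7.28-fold higher, at the 20.6th percentile of detected P probes. The list was drawn up by the study from a comparison of the classes on these same samples, so P2332 is not independent evidence of a direction. The other 189 transcripts are given by probe name only.

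Levels of the 190 transcripts in expressing genotypes were partly set by the criteria, as the required gap leaves out expressing values near background. Nothing is therefore read from their contrast with all detected P probes. The mean over the expressing genotypes ranged from -2.66 to 7.97 with a median of 0.30, and the median expressing value was 0.48, against 1.11 for the 19812 P probes detected on all arrays. In percentiles of the detected P probes the transcripts ranged from 8.4 to 98.1 with a median of 42.3, and 81 of them lay above the 50th and 7 above the 90th percentile. The lower limits of the fold ranged from 2.59 to 4290 with a median of 19.9.

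Expressing genotypes often differed among themselves. The range over the expressing genotypes had a median of 1.17, against 0.57 for P probes detected on all arrays taken over the same genotypes. It was under 1 for 79 transcripts and over 2 for 43. The criteria chose transcripts that differ between genotypes, and the compared probes were not matched for level, so nothing is read from the contrast of the medians. The widest range, 7.71, was that of P8523, which read 4.98 in genotype 2, -1.29 in genotype 3 and 6.42 in genotype 7 and -6.42, -4.83 and -6.31 in genotypes 1, 4 and 5. P16493 read 4.46, 3.40 and 3.22 in genotypes 1, 2 and 3 but -3.0 in genotype 4, and -6.33 and -6.52 in genotypes 5 and 7. In both, 1 expressing genotype thus lay closer to the silent genotypes than to the other expressing ones. These 2 probes were chosen after their values were seen.

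Most silent values lay within the range of the negative control spots, but not all. Each array held 308 negative control spots, pooled over both arrays for genotypes 3 and 7, where silent values are means of both arrays. Of the 532 silent values, 468 (88.0%) were at or below the 99th percentile of these spots in the same genotype, and 64 were above it. The share at or below it ran from 69.3% in genotype 7 to 100% in genotype 3. The percentile itself was -6.01 in genotype 7 and -3.62 in genotype 3, so these shares rest on unlike limits. The highest silent value was -4.62 in genotype 7 and -4.02 in genotype 3. The median silent value was -5.96, against -5.98 over the 5435 P probes that were silent on all arrays. Of the silent spots, 37.7% were still called positive and significant by the software, which is a weaker criterion, against 45.8% of all P spots that were not well above background. A silent transcript is therefore one below the reach of the flag and not one shown to be without RNA. The gap required of the transcripts favours low silent values, so their median and the share of positive and significant spots were partly set by the criteria.

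Duplicate arrays gave the precision of single values. For the expressing transcripts the SD per array was 0.09 in genotype 3 (n = 89 transcripts) and 0.10 in genotype 7 (n = 102), and 0 transcripts differed more than 2-fold between the arrays. For the silent ones it was 0.40 and 0.43, and 9 of 101 and 12 of 88 differed more than 2-fold. Among the 19812 P probes detected on all arrays the SD was 0.10 and 0.13, and 21 and 48 differed more than 2-fold. The flag had to agree on both arrays, so this part of the agreement was set by the criteria. The spread covers hybridization of 1 RNA and not the spread between plants. No spot of the 190 transcripts was flagged as saturated, non-uniform or a population outlier (0 of 1520), and 0 of them were spotted more than once.

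The division of genotypes 1, 2 and 3 from 4, 5 and 7 coincided with the rows of the slide. The arrays of genotypes 1, 2 and 3 lay in row 1 and those of 4, 5 and 7 in row 2, so that row and genotype cannot be told apart for this division. It held 12 of the 190 transcripts (6.3%), 6 expressed in each row, the most among the 9 divisions of 3 against 3, ahead of 10 for genotypes 1, 2 and 7 against 3, 4 and 5. Counted by flags alone it held 61 of the 1174 P probes (5.2%), against 73 for genotypes 1, 5 and 7 against 2, 3 and 4.

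Besides P7515, the largest gap among those expressed in row 1 was that of P1462, with 4.50, 3.52 and 3.78 in genotypes 1, 2 and 3 and -5.97, -6.18 and -6.37 in 4, 5 and 7. In row 2 the largest gaps were those of P28198, which read 3.50, 2.99 and 3.77 in genotypes 4, 5 and 7 and -4.18, -5.29 and -4.80 in 1, 2 and 3, and of P23769, which read 3.68, 1.21 and 2.12 against -6.03, -6.15 and -5.41. The folds were at least 262, 167 and 79.9. In genotype 1 the signal of P28198 was above the lowest one called well above background on that array (-4.24), without carrying the flag. Background-subtracted negative controls had an SD of 4.29 to 5.36 intensity units on the arrays of row 1 and 3.17 to 3.42 on those of row 2. Under the same criteria, 0.183% of all probes with names beginning with O, detected or not, were on-off, and 35.6% of those on-off probes followed the slide rows. The part of the slide row in these 12 transcripts, or in the 178 with other divisions, was not tested.

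Position within the array and probe numbers were not used by the criteria. Among all 17955 pairs of the 190 transcripts, 500 (2.78%) had the same division. Of 37 pairs of these transcripts that lay within 5 rows and columns of each other on the array, 0 had the same division, and the 4 corners of the array, cut at its middle row and column, held 37 to 56 transcripts each. There were 6 pairs with consecutive probe numbers. In 2 of them (33.3%) the division was the same. Of the 380 places next to a transcript in number, 12 (3.16%) were held by another of the 190, which make up 0.653% of the P probes. None of these shares was tested. P8976 and P8977 were expressed in genotypes 1 (-1.61 and -0.38) and 7 (-1.68 and -1.84), and lay between -6.15 and -5.78 elsewhere. P28708 and P28709 were expressed in genotypes 2 (-1.63 and -0.87), 3 (-2.91 and -1.83), 4 (-1.60 and -1.05) and 7 (-2.64 and -1.55), and read -6.17 and -6.15 in genotype 1 and -6.01 and -6.02 in genotype 5.

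Likeness of whole profiles was also seen between distant numbers. Of the 500 pairs with the same division, 29 differed by at most 1 log2 unit in all 6 genotypes and 9 by at most 0.5. The closest were P27314 and P699, expressed in genotypes 2 (-2.54 and -2.73) and 3 (-1.58 and -1.74), which differed by at most 0.21. P20510 and P20512 differed by at most 0.45, whereas P20511, numbered between them, was silent in genotype 4, where they read -1.80 and -1.89, and read 0.48 in genotype 5, where they read -5.17 and -4.93. These probes were chosen after their values were seen. Several probes can read 1 gene, and which of them do is not given in the sources used here, so 190 probes are at most 190 genes.

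The comparison for which the study was made, resistant against sensitive genotypes, was fitted with limma on all 22314 retained probes. At an unadjusted p threshold of 0.05 and a 2-fold difference, 1.74% of these were called (0.748% higher in resistant and 0.995% higher in sensitive genotypes, or 167 and 222 probes, and 252 and 168 with scaling to the median of the array). Of the 190 transcripts, 34 were retained, because a probe had to pass the flags on all arrays of at least 1 class, and 156 were not. Of the 34, 12 were called, 2 higher in resistant and 10 higher in sensitive genotypes, P2332 among the latter (resistant minus sensitive -4.16, SE 1.22 on the log2 scale). After Benjamini-Hochberg adjustment 0 of the 34 were called, against 18 of all retained probes (0.0807%). Nothing is read from these counts, as the transcripts were chosen on the same values.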

How the data were processed

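Cy3-labelled cRNA made from total RNA of 1 meristem per genotype was hybridized to 8 arrays of 1 slide. The authors deposited, for each array, Feature Extraction 10.7.3.1 output with quality flags and a linear intensity per spot, corrected for background and spatial trend, and also log2 values that they had scaled to each array's 75th percentile and centred on each probe's median. No genome build applies to these files, and probe sequences are not given in the sources used here. Here, log2 intensity minus the array's 75th percentile over non-control spots was used, duplicate arrays were averaged, and these authors' values served as an alternative (0 columns belonged to no sample). Scripts ran in Python 3.11.15 (pandas 2.3.3, numpy 2.4.6, matplotlib 3.10.9) and R 4.3.3 with limma 3.58.1 (data.table version 1.17.8), and were tested on simulated data. Classes were compared with limma's lmFit and eBayes on probes passing all flags on all arrays of at least 1 class. The depth of an array is not a read count, and the number of genotypes limits the precision.

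The transcripts and the lists were chosen with earlier results of these data known. Probes named by rule are the transcript in the study's list of accessions, the 10 with the largest gaps, and consecutive numbers with 1 division. They also include the 2 largest gaps in each of the 6 most frequent divisions (ties by largest gap) and in both directions of the slide-row division. The 2 probes just inside and just outside the limit were named too. All other probes in the text were chosen after their values were seen. Of the 192 probe names and identifiers looked up, 0 matched the 30391 genes of the RefSeq list. Alternatives were quantile and median scaling, normexp background correction with an offset of 50, gaps of 2 and 4, other detection flags, 1 array of genotypes 3 and 7, the slide row as a block, the methods' t-test, and leaving out each genotype.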

Additional observations from a re-analysis of the deposited data

How the results depend on the processing

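The number of on-off transcripts was 190 and fell to 64 with normexp, to 65 with the positive and significant flag, to 103 with silent signals raised to the lowest signal well above background and to 122 with a gap of 4. It rose to 319 with a gap of 2 and to between 347 and 381 when 1 genotype was left out, where divisions with 1 silent genotype of 5 also counted and 159 to 174 of the 190 remained. Under the other settings it was 172 to 200. The slide-row division held 5 transcripts and the most frequent division 6 with normexp, and the latter 24 with a gap of 2. Expression in genotypes 1, 2, 5 and 7 stayed the most frequent division in all 7 settings tried for it. Of the 29 transcripts named by rule, 0 reversed, and in the 6 settings run for their gaps (quantile, median, normexp, either array alone of genotypes 3 and 7, the authors' values) 27 or more kept a gap of at least 3, except with normexp (22).

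Between the classes, 389 probes were called, 776 without the filter on dim probes, 181 with the methods' t-test (0 adjusted) and 320 to 765 with 1 genotype left out, the highest without genotype 1. Adjusted calls ranged from 0 to 18. The split, 167 higher in resistant and 222 in sensitive genotypes, turned to 252 and 168 with median scaling, 166 and 156 with the slide row as a block, 97 and 84 with the t-test, 195 and 149 without genotype 3, and 257 and 196 without genotype 5. No paired analysis was possible because every label carries the same replicate number. Signal over background limits what can be called silent.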

Other observations

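The same criteria applied to the 24555 probes whose names begin with O, some of which the study's list ties to contigs of sequenced genomic DNA, gave 45 probes (0.183%) in 11 divisions, with a median gap of 4.12. Of these, 24 were expressed in 2 genotypes, 20 in 3 and 1 in 4. The division of genotypes 4, 5 and 7 from 1, 2 and 3, which is that of the slide rows, held 15 of them in one direction and 1 in the other, or 35.6% of the O probes against 6.3% of the P probes above. Expression in genotypes 3 and 4 held 10 and in genotypes 1 and 2 held 7. The 0.183% is a share of all O probes, detected or not, and has no like base with the 0.653% of P probes. Over the arrays, 73.2% to 76.2% of P spots were well above background, but only 42.6% to 45.0% of all spots.

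The largest gap among O probes, 11.58, was that of O19920, which read 6.38 in genotype 4, 6.02 in genotype 5 and 6.27 in genotype 7, against -6.35 in genotype 1, -5.75 in genotype 2 and -5.56 in genotype 3. The next was O18443, with 2.33, 1.99 and 2.6 in genotypes 4, 5 and 7 and -6.52, -6.15 and -6.12 in 1, 2 and 3. Both were thus expressed in all genotypes of row 2 and in none of row 1, and slide row and genotype cannot be told apart. Genotype 4 expressed 30 of the 45 O probes, the most, and genotype 3 expressed 12, the fewest. These probes were chosen after their values were seen, and the difference in shares between O and P probes was not tested.

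Outside the divisions described, 108 P probes met the gap with expression in 1 genotype only and 196 with silence in 1 genotype only. Probes whose names begin with T gave 0 under the same criteria.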
